A study of Mus musculus with 38 samples.

Results

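Intestinal stem cell organoids labelled Ppard-fl/fl and organoids labelled Ppara-null were compared for their response to GW501516 (GW), a synthetic agonist selective for PPARδ. The quantity described, gene by gene, is the response in the Ppard group (D) minus the response in the Ppara group (A), that is (GW in D minus vehicle in D) minus (GW in A minus vehicle in A). It addresses which of the 2 receptors carries more of the response, on the assumption that Ppard is lost in D. D organoids still have Ppara and A organoids still have Ppard. It used 18 of the 38 samples of the series, 8 in D and 10 in A, chosen by the treatment and genotype in the names of the count columns, with the column of GW in D that carries a suffix 2 and all columns with the letters KD left out. The rule kept the column with a suffix 2 of GW in A, which is the first GW library of A and the only one of the 18 numbered up to 36 with more Y-linked than Xist counts.

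All 18 samples were crypt-derived organoids of C57BL6 mice, kept for 8 days and over 2 passages in 65% matrigel. The D genotype is written as Ppard-fl/fl in the labels, a floxed allele with no recombinase named, and the A genotype as Ppara-null. There were 5 vehicle libraries (0.1% DMSO) and 3 GW libraries (1 uM GW501516 in 0.1% DMSO) in D, and 5 vehicle and 5 GW libraries in A. Wild-type (WT) organoids, and organoids of the genotype Ppard-fl/fl; Ppara-null (DA), under the same 2 treatments served as outside reference.

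PPARα and PPARδ are nuclear receptors that bind DNA as partners of RXR, at repeats of the half-site AGGTCA spaced by a single base, and fatty acids are among their natural ligands. In the small intestine both are known to switch on genes for fatty acid binding, transport into mitochondria and peroxisomes, and oxidation. They share many of these target genes, and GW binds PPARα more weakly than PPARδ.

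PolyA RNA was read as 3′ tags (3′ digital gene expression), and each library held 353347 to 577557 counts over 9660 to 11070 genes. Between 7.55% and 10.2% of the counts were from mitochondrially encoded genes. Markers of tuft cells and immune cells were nearly absent: 7 of 9 and 7 of 11 of these genes had no count in any of the 18 libraries. Of the stromal and endothelial markers 8 of 11 had no count in any of them. The endothelial marker Pecam1 was counted in every library. Its mean level was 23.0 CPM in vehicle and 26.7 CPM with GW in D, and 29.8 and 25.3 CPM in A. The stem cell marker Lgr5 lay between 0 and 13.1 CPM (counts scaled to a common library total of 1000000). No 2 libraries of a group were copies: the chi-square per degree of freedom was 1.81 to 6.96 over the 33 within-group pairs. The column names carry library numbers that fall into a run of 1 to 36 (11 of the 18 libraries) and a run of 37 to 60 (7 libraries). In the first run 10 of the 11 libraries had more Xist than Y-linked counts, and in the second run 0 of 7. Each of vehicle in D, vehicle in A and GW in A had 3 libraries in the first run and 2 in the second, and GW in D had 2 and 1. Values of a group are given in the order of these numbers.

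The knocked-out genes gave a limited check of the labels. Ppara had 6, 1, 3, 9 and 8 counts in vehicle in D and 13, 6 and 1 in GW in D, against 2, 0, 2, 2 and 3 in vehicle in A and 1, 2, 0, 3 and 2 in GW in A. The A libraries were all low, and in D 2 vehicle libraries (the second and the third) and the third GW library fell in the range of A. Ppard had 0 to 4 counts in every one of the 18 libraries, so it checked nothing. A further sample stayed outside the groups: it is titled as GW in D but carries both knockouts by its genotype label. The column names do not show which D column belongs to it. In the sample list it stands between the first GW samples of WT and of DA. The first GW columns of those groups are numbered 2 and 4, and the 3 used GW columns of D are numbered 14, 31 and 54. If samples and columns share 1 order, it is not 1 of the 3 used. The titles carry no library numbers, so this stayed unsettled. The third GW library of D was also the only one of its group numbered above 36. Response differences of the main genes and of 7 gene lists are also given without it.

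Across the 4902 genes tested, no gene passed as different in its response between D and A (quasi-likelihood test of edgeR, p adjusted by Benjamini-Hochberg, threshold 0.05, 0% called). DESeq2 called 1 gene, the predicted gene Gm14648, and limma-trend called 0. Without adjustment, 113 genes (2.31%) had a p under 0.05, 55 (1.12%) with the larger response in D and 58 (1.18%) with the larger response in A. The distance from the estimate to either end of the 95% interval had a median of 0.842 on the log2 scale. That is a limit for a single gene before adjustment. Larger differences, among them those of Gip and Abhd2 below, also failed the adjusted test at this depth and number of libraries. Whether libraries of a group came from separate animals or cultures is not in the labels, so the p-values describe the spread among libraries, which may be technical.

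The 2 responses on their own had different numbers of calls. GW in A changed 15 genes (0.306% of those tested), 14 of them upward, whereas GW in D changed 0 (0%), with 159 genes (3.24%) at an unadjusted p under 0.05 and 0 genes by DESeq2 and limma-trend. The D response rested on fewer libraries, and its median SE was 0.318 against 0.268 in A. The count in A was 6 without the fifth GW library, 8 without the first vehicle library, 9 without the fourth, and 3 within libraries 1 to 36. These counts do not show that the responses differ; the difference itself is the test above.

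Genes that GW raised in WT organoids were used to read the 2 responses on genes that rise with the agonist, since the WT libraries enter neither response. Whether they are direct targets was not tested. There were 20 such genes (0.408% of those tested), and they code mostly for fatty acid metabolism. In A all 20 lay above vehicle and 12 passed the test, against 0.286% of all genes called upward in A. In D all 20 lay above vehicle as well and 0 passed. The median response was 0.724 on the log2 scale in D and 0.999 in A, beside 1.24 in WT and 0.101 in DA. The response was the smaller in D for 16 of the 20, where 50% of all genes tested lay lower in D, and the median difference was -0.35. Of the 20 intervals 2 excluded 0, both with the smaller response in D, and none passed after adjustment.

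**Figure D1:**
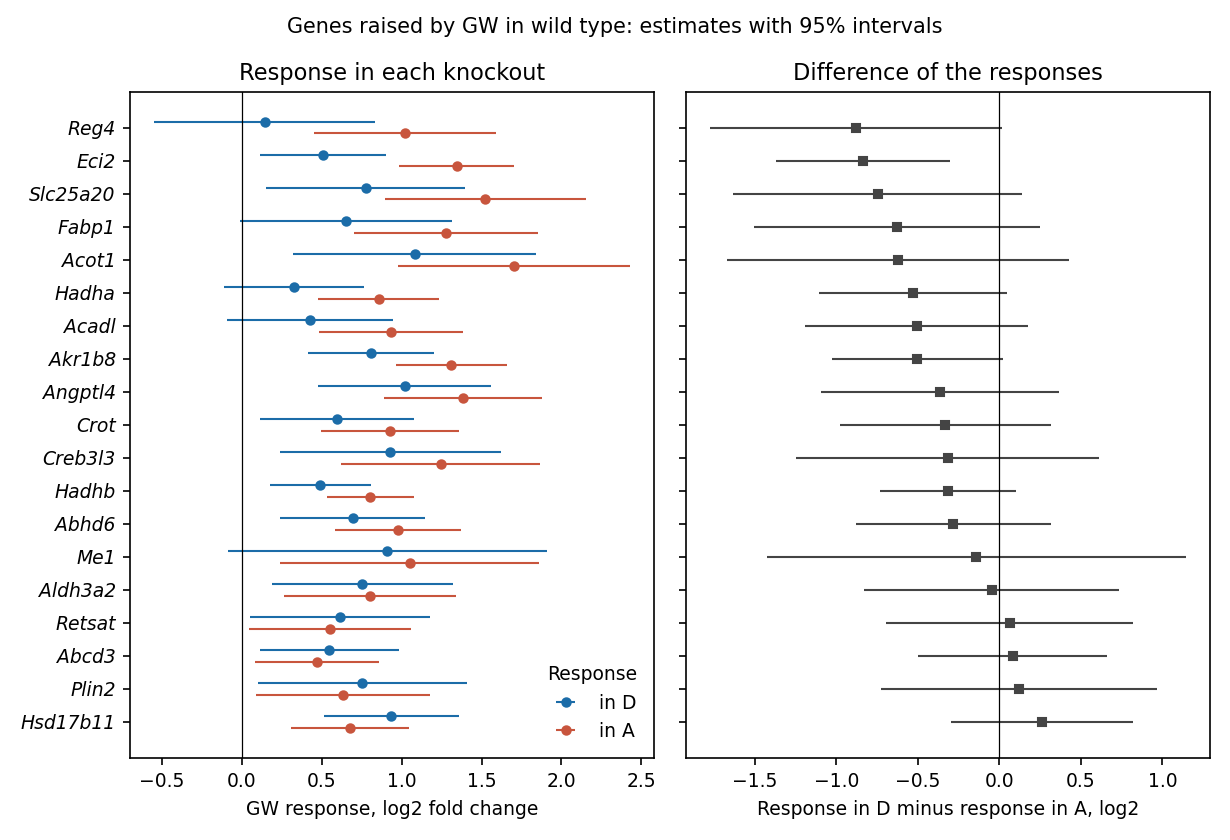
Responses to GW in D and A (left) and their difference (right), as log2 fold changes with 95% intervals, for 19 of the 20 genes raised by GW in WT. Most differences lie left of 0, but the interval of Eci2 alone among those drawn stays below it.

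The levels before and under GW were compared for the same 20 genes. In vehicle, 18 of the 20 were higher in D than in A, with a median difference of 0.326, whereas 52% of all genes were higher in D. Under GW, 9 of the 20 were higher in D and the median difference was -0.03. Regardless of sign, the vehicle difference was the larger for 13 of the 20, with a median size of 0.326 against 0.206 under GW, which was not tested. The response difference is by construction the GW difference minus the vehicle difference, so a high vehicle level in D and a small response in D share the same vehicle libraries and are not 2 independent results. Within libraries 1 to 36 the median response difference was -0.24 and the median vehicle difference 0.247; within libraries 37 to 60, where GW in D had 1 library, they were -0.87 and 0.429. Without the third GW library of D the median response difference was -0.32, and 17 of the 20 were lower in D. Without the columns with a suffix 2 the median was -0.485.

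**Figure D2:**
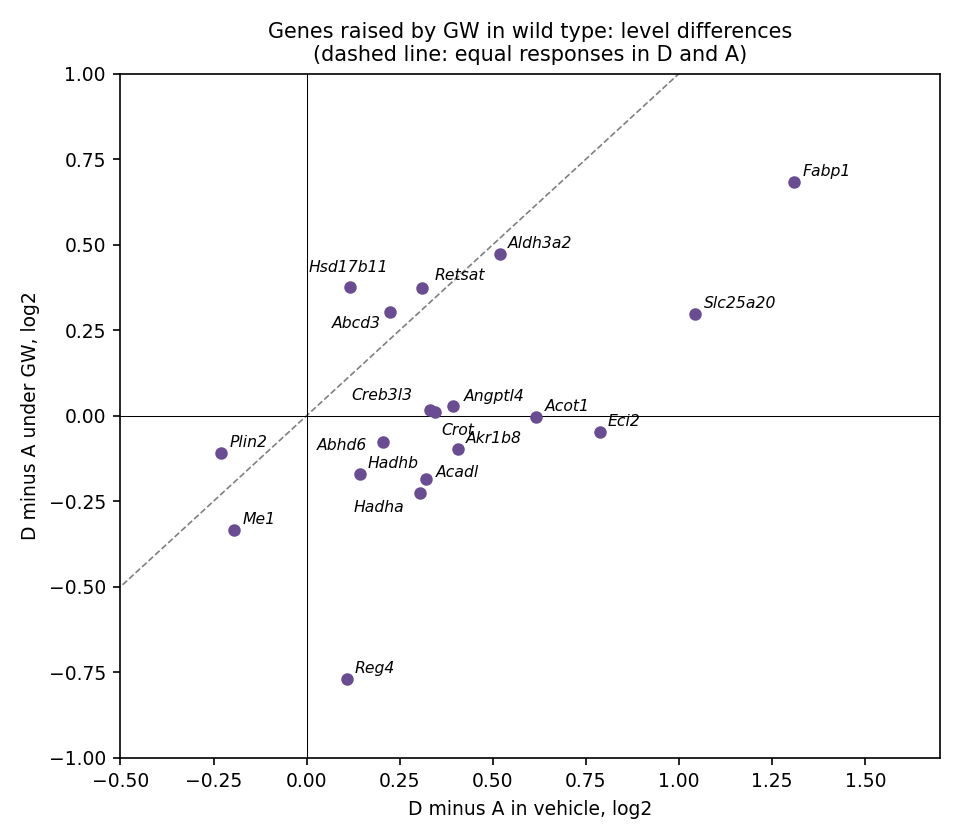
Difference between D and A in vehicle (x axis) and under GW (y axis), both log2, for 19 of the 20 genes raised by GW in WT. Points below the dashed line had the smaller response in D; most lie to the right of 0 in vehicle and close to 0 under GW, and Fabp1 and Slc25a20 lie farthest right.

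The PPAR element was taken as 2 copies of AGGTCA with any 1 base between them, on either strand. For 4 of these genes, a window around a start carried a match to it with at most 2 mismatches. The windows ran from 250 bases before to 50 bases after each start (RefSeq, GRCm38.p6), and 18 of the 19 genes named here had at least 1. A gene with several starts had several windows, and its closest match was counted. A match occurred in 4 of the 18 genes (22.2%), and in 4.4% of the 27025 genes with a window. With at most 1 mismatch it occurred in Fabp1 only, and in 0.644% of all genes. The stretch upstream of Fabp1 (chr6:71199629-71199826, + strand) is shown because this gene carried the closest match and the largest vehicle difference of these genes. The 3 others are shown because they carried the remaining matches with at most 2 mismatches. For none of the 4 did the response difference pass, and binding at the matches was not tested. Capitals mark the 13 matched bases.
Fabp1: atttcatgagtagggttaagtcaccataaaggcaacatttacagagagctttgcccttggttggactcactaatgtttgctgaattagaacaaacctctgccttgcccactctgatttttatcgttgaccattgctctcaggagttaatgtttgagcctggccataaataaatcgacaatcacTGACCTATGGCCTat
Slc25a20: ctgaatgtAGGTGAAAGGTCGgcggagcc
Creb3l3: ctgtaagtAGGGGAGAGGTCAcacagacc
Plin2: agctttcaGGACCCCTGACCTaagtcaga
The Fabp1 match began 67 bases before the RefSeq start, and just before the earlier gene start in the annotation of the files, and read on the strand opposite to the gene, as did that of Plin2. The matched bases were at chr6:71199812-71199824 for Fabp1, chr9:108662142-108662154 for Slc25a20 (+ strand gene), chr10:81092788-81092800 for Creb3l3 and chr4:86670272-86670284 for Plin2 (both - strand genes, shown in the direction of the gene). Eci2 and Acadvl had no match within the limit of 2 mismatches in their windows. The closest match in the window of another, upstream start of Creb3l3 had 4 mismatches.

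Fabp1 (chr6:71199827-71205023, + strand), the cytoplasmic fatty acid binding protein of enterocytes and hepatocytes, showed the widest gap in vehicle between D and A among the genes raised in WT. Its level in vehicle was 18544, 25853, 34249, 17902 and 13271 CPM in D, and 7755, 10423, 11075, 8247 and 10877 CPM in A. With GW it was 45499, 38365 and 21443 CPM in D, and 16753, 25130, 24388, 21060 and 27842 CPM in A. The vehicle groups did not overlap, the GW groups did, and the lowest GW library of D was the third. In WT vehicle Fabp1 lay between 13490 and 19562 CPM, and in DA vehicle between 6462 and 12986 CPM, so the A range fell within that of DA.

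The vehicle difference of Fabp1 was 1.31 ± 0.28 (log2, SE), a 2.48-fold higher level in D, with an edgeR adjusted p of 0.0299. Its response was 0.65 ± 0.33 in D and 1.28 ± 0.28 in A, and only the latter passed (edgeR adjusted p 0.0296). The difference of the responses was -0.63 ± 0.43, with a 95% interval from -1.50 to 0.25, and -0.34 without the third GW library of D. The vehicle call held within libraries 1 to 36 (1.57) and not within libraries 37 to 60 (0.725). It was also lost without the second or the third vehicle library of D (1.19 and 1.04), without the first, the second or the fourth of A (1.24, 1.35 and 1.23), and without the columns with a suffix 2 (1.30); the direction held in each. The other 19 enterocyte markers summed to 6147 to 7135 CPM in vehicle in D and to 5327 to 7550 CPM in vehicle in A, ranges that overlap, and their part in the Fabp1 difference was not tested.

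Eci2 (chr13:34977748-35027096, - strand), an isomerase that prepares unsaturated fatty acids for oxidation, gave the smallest p for a difference in response among the genes raised in WT. In vehicle it was at 97.8, 53.8, 76.2, 103 and 92.8 CPM in D and at 59.8, 45.5, 54.3, 53.7 and 47.6 CPM in A. With GW it was at 126, 120 and 116 CPM in D and at 147, 95.2, 144, 145 and 120 CPM in A. The A vehicle libraries all lay low, 4 of the 5 D vehicle libraries lay above them, and under GW the D values fell inside the A range.

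The response of Eci2 was 0.51 ± 0.19 in D and 1.35 ± 0.18 in A, and the difference was -0.83 ± 0.26 (95% interval -1.37 to -0.30, unadjusted p 0.003, edgeR adjusted p 0.999). In vehicle it was 0.79 ± 0.18 higher in D (edgeR adjusted p 0.0365). That call was lost in most of the alternatives, among them limma-trend (0.659) and the fits within libraries 1 to 36 (0.653) and 37 to 60 (0.973), always in the same direction. The response difference lay between -0.92 and -0.75 when each library was left out in turn.

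Acadvl (chr11:70010183-70015411, - strand), the very long chain acyl-CoA dehydrogenase that starts mitochondrial oxidation, had a similar order of levels, although it had not passed in WT. Its vehicle level was 62.6, 50.9, 46.7, 89.7 and 63.8 CPM in D and 27.8, 28.9, 28.3, 40.8 and 40.2 CPM in A. With GW it was 78.4, 38.5 and 64.8 CPM in D and 51.2, 46.6, 53.0, 74.4 and 67.7 CPM in A. The vehicle groups did not overlap, while the GW libraries of D spanned the whole vehicle range of D except its highest value.

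In vehicle Acadvl was 0.98 ± 0.23 higher in D (1.97-fold, edgeR adjusted p 0.0306). Its response was -0.05 ± 0.24 in D and 0.83 ± 0.23 in A, neither of which passed, and the difference was -0.89 ± 0.33 (unadjusted p 0.0111, edgeR adjusted p 0.999). The vehicle call was lost in the limma-trend fit (0.882) and in either run of library numbers (1.03 and 0.94), with the direction kept. It was also lost without the columns with a suffix 2 (0.973), without the first, the fourth or the fifth vehicle library of D (0.984, 0.848 and 1.0), without the first, the second or the third of A (0.923, 0.942 and 0.941), and without the D libraries numbered 37 to 60 (0.842). Without the third GW library of D the response difference was -0.875.

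**Figure D3:**
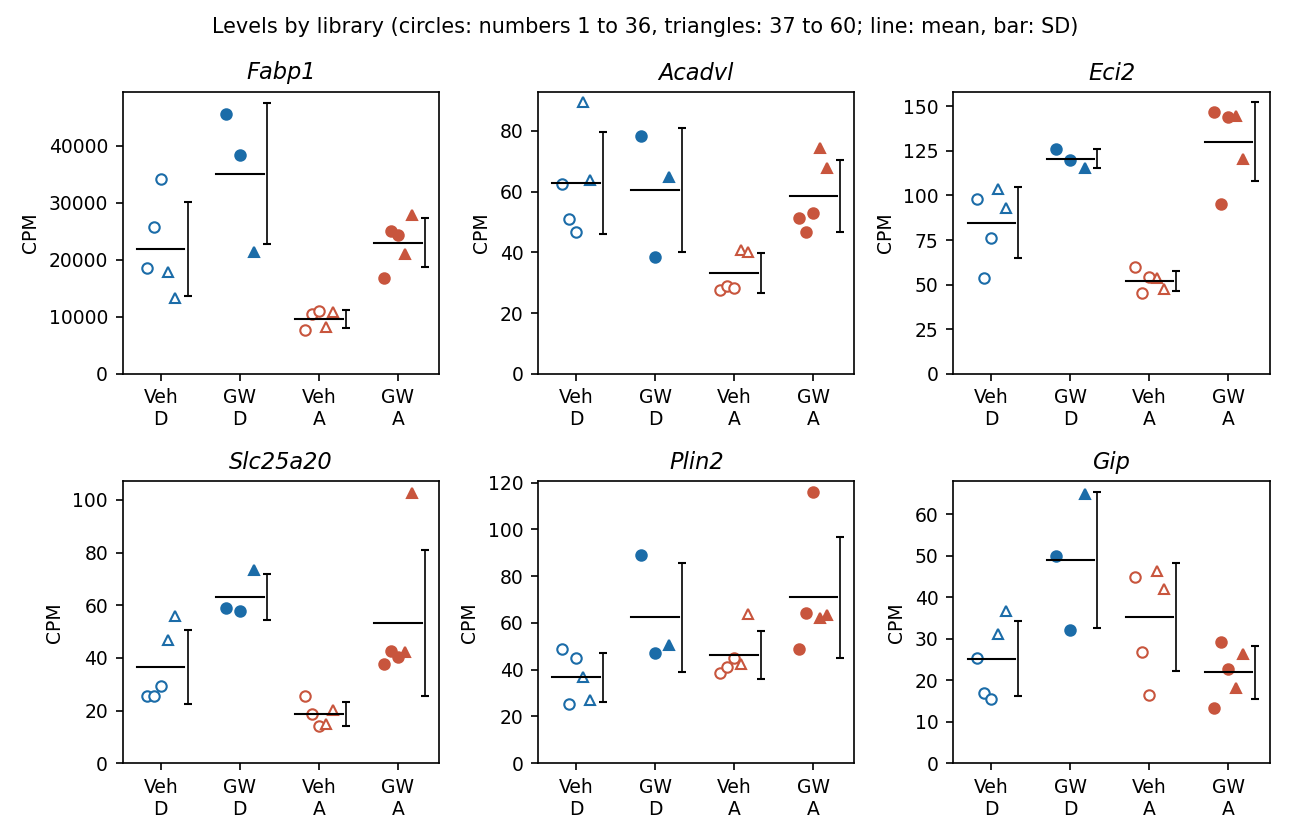
Levels in CPM (y axis, from 0) of 6 genes in each library of vehicle (open) and GW (filled) in D and A; lines are group means and bars are ± SD over the 5, 3, 5 and 5 libraries. Vehicle levels of Fabp1 and Acadvl in D lie above all those in A, and Gip lies lower with GW in A and higher with GW in D.

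Mitochondrial fatty acid oxidation as a list held 19 measured genes, 5 of them among the genes raised in WT. The response was smaller in D for 15 of the 19, with a median difference of -0.34, and 3 reached an unadjusted p under 0.05 (15.8%, beside 2.31% of all genes): Eci2, Acadvl and Acaa2, the thiolase that closes each round of oxidation. None passed after adjustment, and without the third GW library of D 16 of the 19 were smaller in D, with a median of -0.34. In vehicle 17 of the 19 were higher in D, with a median of 0.257, and 2 passed, Acadvl and Eci2 (0.286% of all genes were called). In A, 10 members of the list were higher with GW at an unadjusted p under 0.05 (2.04% of all genes) and 6 passed, against 3 (1.69% of all genes) and 0 in D.

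In the oxidation list the largest differences after those of Acadvl and Eci2 were of Cpt1a (-0.76), which hands fatty acids to carnitine at the outer membrane, and of Slc25a20 (-0.75), which carries them across the inner membrane. Hadha (-0.53), a chain of the trifunctional protein, Acaa2 (-0.52) and the long chain enzyme Acadl (-0.51) came next, and Hadhb, the other chain, had -0.31. The genes of the list with the larger response in D were Acad11 (0.47), Cpt2 (0.23), Acadm (0.18) and Decr1 (0.08). Etfa, Etfb and Etfdh, which pass the electrons on to the respiratory chain, differed by -0.38, -0.29 and -0.41.

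Slc25a20 (chr9:108662088-108684641, + strand) rose with GW in A and stood higher in D from the start, but its values depended on the library. In vehicle it was at 25.4, 25.5, 29.4, 46.8 and 56.1 CPM in D and at 25.6, 18.6, 14.2, 14.8 and 20.1 CPM in A. With GW it was at 58.8, 57.7 and 73.3 CPM in D and at 37.8, 42.7, 40.4, 42.2 and 103 CPM in A. Under GW 4 of the 5 A libraries lay below all 3 D libraries and the fifth lay above them. The response difference of -0.75 ± 0.44 was -0.01 within libraries 1 to 36 and -1.55 within libraries 37 to 60, -0.39 without the fifth GW library of A and -0.79 without the third of D, and the vehicle difference of 1.04 ± 0.32 had an edgeR adjusted p of 0.282.

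Acaa2 had vehicle levels of 264, 337, 222, 390 and 344 CPM in D and 175, 242, 210, 256 and 331 CPM in A. With GW it had 342, 321 and 417 CPM in D and 267, 264, 404, 509 and 537 CPM in A. Groups overlapped in both treatments, and the highest values were the GW libraries of A numbered 37 to 60. It rose in A (0.73 ± 0.16, edgeR adjusted p 0.0296), had a response of 0.21 ± 0.19 in D, and differed by -0.52 ± 0.25 between the responses (unadjusted p 0.0442).

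Other genes raised in WT also had a smaller estimated response in D. Reg4, a secreted lectin of enteroendocrine and goblet cells, was at 78.4, 145 and 87.4 CPM with GW in D and at 200, 142, 351, 133 and 107 CPM with GW in A, and its response difference was -0.88 ± 0.44. Akr1b8, an aldo-keto reductase, was at 305, 301 and 488 CPM with GW in D and at 343, 371, 429, 468 and 382 CPM in A, with a difference of -0.50 ± 0.26. Acot1, which releases fatty acids from coenzyme A, differed by -0.62 ± 0.52, and Angptl4, a secreted inhibitor of lipoprotein lipase, by -0.36 ± 0.36. For each of these 4 genes the interval included 0. Angptl4 was at 0.05 within libraries 1 to 36 and between -0.76 and -0.20 with 1 library left out, the ends being without the first and without the second GW library of D. Acot1 ran from -0.86 to -0.37 for the same 2 libraries, and Reg4 from -1.29 without the second GW library of D to -0.51 without the third of A. Without the third GW library of D the values were -0.72 for Reg4, -0.68 for Akr1b8, -0.69 for Acot1 and -0.22 for Angptl4.

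The 13 measured PPAR targets outside oxidation were mixed. The response was smaller in D for 9 of the 13, with a median difference of -0.14, and 1 had an unadjusted p under 0.05 (7.69%, beside 2.31% of all genes). Limma-trend and the fit within libraries 1 to 36 gave a median of 0.01 each, so the direction of the list turned; it was -0.35 without the first GW library of A and -0.12 without the third of D. In vehicle 9 of the 13 were higher in D, with a median of 0.332. The fatty acid uptake, binding and activation list had 5 of 8 genes with the smaller response in D (median -0.18) and none at an unadjusted p under 0.05. The median was -0.05 without the second vehicle library of D, and -0.10 without the third GW library of D. Its most negative value was that of Acsl3, an acyl-CoA synthetase (-0.94), and Fabp2, the intestinal fatty acid binding protein, differed by -0.24.

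Of the named genes raised in WT, 4 had the larger response in D, by small margins. Hsd17b11, a lipid droplet dehydrogenase, was at 796, 889, 911, 1066 and 1183 CPM in vehicle and 2285, 1392 and 1900 CPM with GW in D. In A it was at 639, 1071, 888, 993 and 1136 CPM in vehicle and 1104, 1243, 1691, 1373 and 1988 CPM with GW. All GW libraries of D lay above all its vehicle libraries, whereas in A the lowest GW value lay inside the vehicle range. Its response difference was 0.26 ± 0.28, and 0.07 without the first GW library of D.

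Plin2, which coats lipid droplets, had a difference of 0.12 ± 0.42, Abcd3, a peroxisomal transporter of acyl-CoA, 0.08 ± 0.29, and Retsat, a retinol saturase, 0.06 ± 0.37. The sign of each of these 3 turned when some single libraries were left out.

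Peroxisomal fatty acid metabolism, whose enzymes shorten very long chain and branched fatty acids, did not share the direction of the mitochondrial list. The response was larger in D for 8 of its 14 measured genes, beside 50% of all genes tested, and the median difference was 0.01. In both genotypes 13 of the 14 lay above vehicle with GW, with a median of 0.302 in D and 0.335 in A. Of all genes, 49.8% lay above vehicle in D and 50% in A. Of the list 2 passed in A and 0 in D, beside 0.306% and 0% of all genes. The only member at an unadjusted p under 0.05 for the difference (2.31% of all genes) was Pxmp4, a peroxisomal membrane protein (-1.14). Its vehicle level was 21.3 to 31.1 CPM in D and 7.32 to 23.6 CPM in A, and with GW it was 25.7 to 37 CPM in D and 17.8 to 56.8 CPM in A.

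Of the genes with the smallest p for a difference in response, none passed the adjusted threshold. Gip (chr11:96024545-96030831, + strand), the incretin hormone of K cells, was at 25.4, 17, 15.6, 31.2 and 36.7 CPM in vehicle and at 50.1, 32.1 and 64.8 CPM with GW in D. In A it was at 44.9, 26.9, 16.5, 46.3 and 42.1 CPM in vehicle and at 13.4, 29.1, 22.7, 18.1 and 26.2 CPM with GW. Under GW all D libraries lay above all A libraries; in vehicle the groups overlapped. The difference of the responses was 1.58 ± 0.43 (unadjusted p 0.000549, edgeR adjusted p 0.999), and it was 1.42 without the third GW library of D and 1.42 and 1.88 within the 2 runs.

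Among the enteroendocrine markers Gip stood alone in its p. Of the 8 measured, 6 had the larger response in D, with a median of 0.186 that was -0.31 within libraries 37 to 60, 0.04 without the second GW library of D and 0.39 without the third, and only Gip had an unadjusted p under 0.05 (12.5% of the list, beside 2.31%). Cck and Tac1, which code for the hormones cholecystokinin and substance P, had differences of 0.87 and 0.84, Gcg and Sct, for proglucagon and secretin, 0.19 and 0.19, and Reg4 -0.88. The 19 markers together summed to 303 to 419 CPM with GW in D and 277 to 548 CPM with GW in A.

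The next genes with the larger response in D by p were Eif2b2, a subunit of the exchange factor of translation initiation (1.32 ± 0.38), and Abhd2, a lipid hydrolase (1.79 ± 0.55). Eif2b2 was at 33.2, 17, 38.1, 25.3 and 32.9 CPM in vehicle in D and at 38.5, 72.3, 40.1, 57.4 and 67.7 CPM in vehicle in A. With GW it was at 34.8, 59.9 and 76.1 CPM in D and at 22.3, 58.3, 42.9, 44.2 and 32.8 CPM in A. The vehicle level was thus the lower in D, without overlap, and the GW levels overlapped.

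Abhd2 was at 11.7, 8.49, 12.1, 15.6 and 11.6 CPM in vehicle and 23.9, 32.1 and 39.5 CPM with GW in D. In A it was at 8.55, 20.7, 18.9, 22.2 and 7.32 CPM in vehicle and 13.4, 13.6, 7.57, 6.03 and 15.3 CPM with GW. The 3 GW libraries of D lay above the other 15 libraries. Nectin3, a cell adhesion protein, Rpp25l, Gpd2, the mitochondrial glycerol phosphate dehydrogenase, Plpp1, a lipid phosphatase, and Trmt112 followed with differences of 1.18, 0.98, 0.81, 1.47 and 0.90. Plpp1 had the opposite sign within libraries 37 to 60. Without the third GW library of D the difference was 1.69 for Abhd2 and 1.15 for Eif2b2.

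On the other side, Ss18, a subunit of the BAF chromatin remodelling complex, was at 17.6, 17, 24.2, 37 and 25.1 CPM in vehicle and 6.53, 10.7 and 19.7 CPM with GW in D. In A it was at 8.55, 22.7, 9.44, 22.2 and 36.6 CPM in vehicle and 33.4, 27.2, 22.7, 44.2 and 24.0 CPM with GW. Under GW every D library lay below every A library, and the difference of the responses was -1.63 ± 0.49. Chmp6, an ESCRT component of endosomal sorting, showed the same order under GW, with 21.8, 23.5 and 31.0 CPM in D and 31.2, 44.7, 53.0, 56.3 and 39.3 CPM in A, and a difference of -1.11 ± 0.35. Without the third GW library of D the differences were -2.01 for Ss18 and -1.19 for Chmp6. Rabepk, Lyrm7, a chaperone of respiratory complex III, and Ctu2 had -1.0, -2.28 and -1.74.

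The smallest p of all belonged to Rps19-ps6 (chr12:110898114-110898551, + strand), a processed pseudogene of a ribosomal protein gene, with an edgeR adjusted p of 0.111. It had 49, 40, 35, 48 and 104 counts in vehicle in A and 0 in all 5 GW libraries of A. In D it had 0, 14, 0, 0 and 0 counts in vehicle and 48, 40 and 0 with GW. The values were all or nothing, and a copy this close to its parent gene can gain or lose reads in the counting, so it is reported as uncertain. It passed without the second vehicle library of D, without the third GW library of D, with only the groups compared and with no filter on low counts.

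In vehicle, 14 genes passed as different between D and A (0.286%), 5 higher in D (0.102%) and 9 lower (0.184%). Beside Fabp1, Acadvl and Eci2 the higher ones were Chek2, a DNA damage checkpoint kinase, and Gm28438. Chek2 was at 19.6, 19.8, 22.5, 29.2 and 38.7 CPM in D and at 8.55, 14.5, 9.44, 9.26 and 11.0 CPM in A, without overlap (1.36 ± 0.32, edgeR adjusted p 0.0306). The call was lost in DESeq2 (1.38), limma-trend (1.2), with no filter on low counts (1.35), with only the groups compared (1.35), in either run (1.03 and 1.74), without the columns with a suffix 2 (1.35) and without the D libraries numbered 37 to 60 (1.13). It was also lost without the third, the fourth or the fifth vehicle library of D, or any of A but the second, at 1.21 to 1.37. With GW it was at 19.6, 15.0 and 8.46 CPM in D and 15.6, 5.83, 7.57, 18.1 and 15.3 CPM in A, and the groups overlapped. The number of genes that passed was 7 without the first vehicle library of A or the fourth or the fifth of D, 8 without the second of A or the third of D, 9 without the first of D, and 3 without the D libraries numbered 37 to 60.

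Gm28438 (chr1:24612775-24613119, - strand), an unprocessed pseudogene, was high in the D libraries only. As with the other pseudogenes, its counts can be shared with near-identical copies. It was at 74.3, 45.3, 71.0, 27.3 and 25.1 CPM in vehicle and 80.5, 83.4 and 64.8 CPM with GW in D, and at 0 in 9 of the 10 A libraries, with 3.70 CPM in the fourth vehicle library. It stayed at or below 12.5 CPM in every WT and DA library. It therefore passed the filter on low counts only through the D libraries, where it was high. The third GW library of D had 64.8 CPM. This does not check the genotype of that library, since the gene was picked on these same D libraries. Gm28438 was the only gene that passed between D and A under GW (0.0204%, edgeR adjusted p 2.63e-05), where DESeq2 called 8 and limma-trend 4.

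The 9 genes lower in D in vehicle comprised 7 pseudogenes, whose counts can be shared with near-identical copies, and the protein-coding Psca and Hddc3. Psca, a surface antigen of secretory epithelium, was at 3.91, 0, 0, 0 and 0 CPM in D and at 8.55, 76.5, 28.3, 13 and 16.5 CPM in A. Hddc3, a hydrolase, was at 1.96, 0, 0, 1.95 and 0 CPM in D and at 44.9, 0, 42.5, 55.6 and 49.4 CPM in A, where the second library was at 0. Both were also low in WT vehicle (0 to 4.32 and 2.16 to 4.50 CPM) and higher in DA vehicle (13.2 to 32.5 and 8.22 to 74.2 CPM). With GW, Psca and Hddc3 reached at most 4.28 and 8.55 CPM in D and 7.06 and 7.40 CPM in WT. They therefore passed the filter on low counts only through A and DA libraries, where they were high. The same held for some of the pseudogenes. Such a filter favours calls lower in D, so these calls are given as levels only.

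Under GW the pseudogene Gm6278 was next by p (edgeR adjusted p 0.0605), and the named protein-coding genes of smallest p on the lower side in D were Itch, a ubiquitin ligase, Ccdc62 and Rep15. None of them passed (edgeR adjusted p 0.0706, 0.0706 and 0.138). All 3 passed in DESeq2 (adjusted p 0.00658, 0.00704 and 0.0179) and in edgeR with a term for the run of library numbers (adjusted p 0.0167, 0.028 and 0.0305), and Itch and Ccdc62 passed in limma-trend (adjusted p 0.0476 and 0.0218). Itch was at 63.1, 79.1 and 107 CPM with GW in D and at 539, 346, 220, 139 and 118 CPM with GW in A. In vehicle it was at 76.3, 116, 81.4, 91.6 and 108 CPM in D and at 291, 283, 276, 130 and 98.8 CPM in A. The A libraries numbered 37 to 60 were the low ones in both treatments, close to D. The level differences of the 3 genes under GW were -1.70, -1.14 and -1.56, those in vehicle -1.12, -0.66 and -1.07, and the response differences -0.58, -0.48 and -0.49.

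Regenerative and fetal-like epithelial genes, which mark repair of the crypt, had signs opposite to those of the oxidation list. In vehicle 9 of 9 measured were lower in D, with a median of -0.65 and 3 at an unadjusted p under 0.05 (33.3%, beside 2.24% of all genes lower and 4.22% in either direction), and the response was larger in D for 7 of the 9 (median 0.557, none at an unadjusted p under 0.05). That median was 0.155 without the second vehicle library of A and 0.48 without the third GW library of D. Clu, a secreted chaperone, was at 78.2, 113, 17.3, 64.3 and 94.7 CPM in vehicle in D and at 98.3, 339, 99.1, 63.0 and 64.0 CPM in A. The 2 groups overlapped and the second A library was far above the rest. The list summed to 514 to 808 CPM in vehicle in D and to 512 to 1827 CPM in vehicle in A, and its vehicle median was 0.10 within libraries 37 to 60, so its direction was not shared by the second run.

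Stem cell markers had the larger response in D for 7 of 9 measured genes (median 0.32), with Soat1 (1.01) and Prom1 (0.92) at an unadjusted p under 0.05 (2.31% of all genes). The median was 0.106 without the fourth vehicle library of A and 0.352 without the third GW library of D. Olfm4, the stem cell marker of the small intestine, fell in neither genotype past the threshold: its response was -0.73 in D and -0.85 in A, a difference of 0.11. Paneth, goblet and cell cycle lists had medians of 0.01, 0.10 and 0.10, and none of their members reached an unadjusted p under 0.05. Oxidative phosphorylation (22 of 30 smaller in D, median -0.08) and ribosomal proteins (21 of 28, median -0.08) leaned the same way as the oxidation list by small amounts, also with none.

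**Figure D4:**
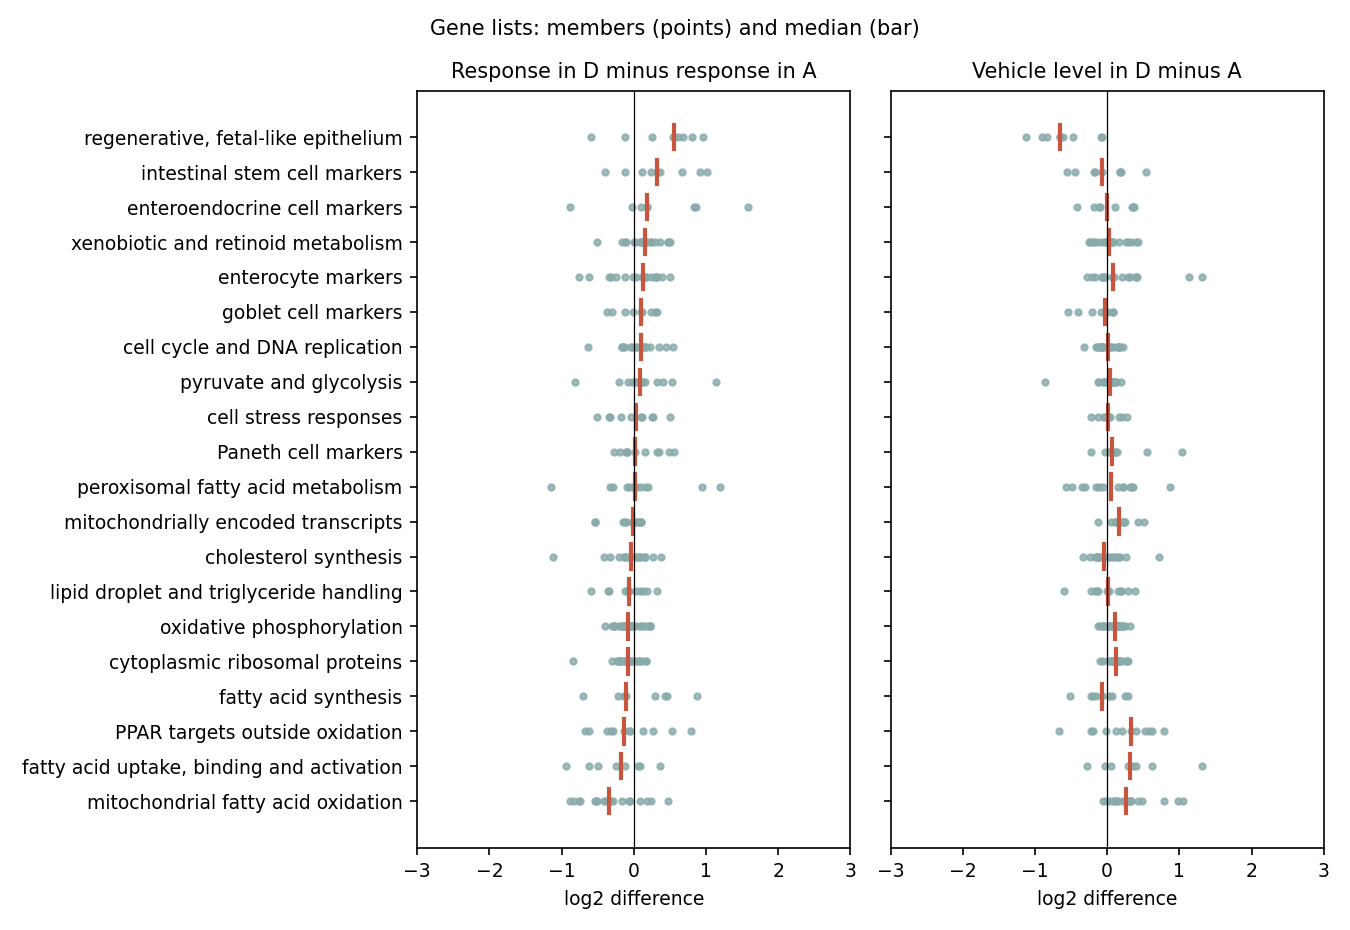
Members (points) and medians (bars) of 20 gene lists for the response in D minus the response in A (left) and for the vehicle level in D minus A (right), both log2. Of the lists drawn, the oxidation list has the most negative median on the left and lies above 0 on the right, and the regenerative list is placed the other way round.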

How the data were processed

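The authors deposited a table of whole-number counts per gene and a table of log2 CPM values; reads had been quantified with Salmon 1.1.0 on mm10 and handled with edgeR 3.26.8 in R 3.6.2, per the submitters' processing notes. Of 57 columns, 37 matched a group by name; 20 (19 with KD, 1 with a suffix 2) were not used. Gene symbols came from the annotation of the files (54109 of 54352 rows had one). The counts were fitted for all 8 groups together with edgeR 4.0.16 (TMM, filterByExpr, quasi-likelihood test, Benjamini-Hochberg adjustment, R 4.3.3). CPM used the library totals. Reported intervals are 95% intervals of the log2 differences. DESeq2 1.42.0, limma 3.58.1 on the deposited log2 values, other scalings and filters, runs of library numbers and leaving out each library were alternatives. The fit was tested on simulated data.

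Named genes were the PPAR genes, the genes of smallest p in each direction for the response difference (up to 8) and for each level difference (up to 4), all genes raised in WT, up to 4 genes per list and 9 reference genes. Further list members (Etfa, Etfb, Etfdh, Acad11, Cpt2, Acadm, Decr1, Gcg, Sct, Clu) and Gm14648 were named after their values were seen. The comparison, its gene lists and reference genes were chosen with earlier results of these data known. Some genes are counted in the totals and not reported here. The sample without a clear group was assigned to none.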

Additional observations from a re-analysis of the deposited data

Results flagged for a closer look

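In 10 of 67 groups of 5 libraries, the highest or lowest library stood apart from the other 4 by more than the 95% limit for a single stray value. For evenly varying values chance gives this in about 1 group in 20. Where the other 4 were at 0, any count was flagged, so that rate does not apply to all of the 67. This was so for Psca and Rps19-ps6 in vehicle in D and for Gm28438 in vehicle in A. Among the lipid genes in A, 1 GW library had 103 CPM of Slc25a20, 1 had only 44.5 CPM of Angptl4 and 1 had 116 CPM of Plin2, and 1 vehicle library had 64.0 CPM of Plin2. Psca reached 3.91 CPM in 1 vehicle library of D, where the other 4 were at 0, and 83.3 CPM in 1 GW library of A. Hddc3 was at 0 in 1 vehicle library of A, and Gm28438 reached 3.70 CPM in 1 vehicle library of A. The pseudogene Rps19-ps6 reached 39.6 CPM in 1 vehicle library of D and 190 CPM in 1 vehicle library of A.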

How the results depend on the processing

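The count of genes with different responses, 0 in edgeR's quasi-likelihood test, was 10 with no filter on low counts, 1 in DESeq2, 1 with only the groups compared, 2 within libraries 37 to 60, and 0 to 1 when each library was left out. The vehicle count of 14 became 65 with no filter, 5 in limma-trend, 7 with only the groups compared, 9 within libraries 37 to 60, 8 without columns with a suffix 2, 3 without the D libraries numbered 37 to 60 (an alternative chosen after seeing the data), and 7 to 18 when each library was left out. The count under GW, 1, became 43 with no filter, 8 in DESeq2, 4 in limma-trend, 3 with only the groups compared, 8 with a term for the run of library numbers, 13 within libraries 1 to 36, and 1 to 8 when each library was left out (8 without the fifth GW library of A). With no filter the responses gave 8 genes in D, 28 in A and 45 in WT; within libraries 1 to 36 they gave 3 in A and 11 in WT, and with each library left out 6 to 16 in A. The median response difference of the genes raised in WT was -0.872 within libraries 37 to 60. That of the oxidation list was -0.208 without the D libraries numbered 37 to 60, and its median vehicle difference was 0.392 within libraries 1 to 36 and 0.16 within libraries 37 to 60.

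Signs of several response differences turned. Within libraries 1 to 36 they were 0.281 for Aldh3a2, -0.0403 for Retsat, 0.0118 for Abhd6, -0.208 for Plin2, 0.397 for Me1 and 0.052 for Angptl4, and within libraries 37 to 60 -0.555 for Plpp1. Limma-trend gave 0.0939 for Aldh3a2 and 0.129 for Me1, and Aldh3a2 was 0.154 without the D libraries numbered 37 to 60. With each library left out, Aldh3a2 ran from -0.168 to 0.203, Retsat from -0.144 to 0.307, Plin2 from -0.25 to 0.367, Me1 from -0.39 to 0.0416 and Abcd3 from -0.0244 to 0.198. The median of the PPAR targets was 0.0116 in limma-trend and 0.0118 within libraries 1 to 36. Within libraries 37 to 60 the enteroendocrine median was -0.308, the vehicle median of the regenerative list 0.0981, and the GW level difference of Fabp1 -0.209. The cause was not tested for any of these.

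No paired analysis was possible because the columns carry no replicate numbers that tie a library of a group to a library of another; a term for the run of library numbers was fitted instead. Low counts and 3 GW libraries in D limit the precision of the response difference.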
